A study of Mus musculus with 8 samples.

Results

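The hearts of mice with and without RNase H1 in heart muscle were compared by the rearrangements of mtDNA that deep sequencing listed in them. All libraries labelled as heart were taken, which were 4 of the 8 libraries of the series, each from 1 mouse, and they held 14 of its 72 listed entries and 12 of its 56 distinct events. The other 4 libraries came from brains and are used only for reference. The study asked how loss of RNase H1 alters mtDNA, and the sequencing was done to look for deleted or duplicated circles. In the knockout hearts the paper reports neither circular mtDNA with deletions nor duplications of mtDNA. The event lists do hold entries for these hearts, none above 0.189% of the reads at its place.

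Control mice (*L/L*, 2 hearts) had the genotype *Rnaseh1* loxP/loxP, with exon II of both *Rnaseh1* alleles flanked by loxP sites and with no cre. Knockout mice (*L/L, cre*, 2 hearts) carried the same alleles and 1 copy of *Ckmm*-cre, which expresses cre recombinase from the muscle creatine kinase promoter in heart and skeletal muscle. Non-muscle cells of the heart do not use this promoter, so that a knockout heart also contains cells with an intact gene. All 4 mice were C57BL/6N and 8 weeks old. In each group the library labelled Mitochondrial DNA came from a male and the library labelled Total DNA from a female, so sex and kind of DNA cannot be told apart. Each *L/L, cre* heart was therefore also set against the *L/L* heart of the same kind of DNA. The brains were from *Mgme1+/+* and *Mgme1-/-* mice of the same strain, 23 to 25 weeks old, with 1 male and 1 female of each genotype and total DNA throughout. No level of *Rnaseh1* RNA or protein was measured in these libraries, so the labels could not be checked against it.

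Mitochondrial DNA is a small circle that encodes subunits of the respiratory chain, rRNAs and tRNAs, and its copying starts from a heavy-strand origin in the non-coding region (NCR) and from a light-strand origin (O_L) on the far side of the circle. RNase H1 degrades RNA that is paired with DNA and takes part in the making and the removal of the RNA primers of replication. Deleted circles often have short direct repeats at their ends, and the arc from O_L to the NCR that holds most protein genes, called the major arc, is the usual place of large deletions.

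A listed event is a cluster of reads whose alignment skips an arc of the circle. Such a read fits a circle that lost the skipped arc and also a circle in which the remaining arc is repeated, and the MitoSAlt pipeline lists 1 of these readings. In the hearts, 7 of 7 listed duplications skip an arc that contains bases of O_L or the NCR, and 0 of 7 listed deletions do. The same split held for all 53 duplications and 19 deletions of the 8 libraries. A short duplication is thus a read that goes back by the length of the segment. Heteroplasmy is the number of supporting reads as a percentage of supporting and reference reads together, and no entry has fewer than 2 supporting reads.

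The sequences around the ends of the events that recur in the text are shown first, because many of them hold a short direct repeat. Each is a window of 31 bases around a listed end, 5′ to 3′ on the reference strand of the mouse mtDNA of GRCm38 (16299 bp), and capitals mark the copy of the deposited direct repeat. The deletion from 12710 to 13108 lies within *ND5*, and the deletion from 13470 to 14022 runs from *ND5* into *ND6*. The deletion from 8255 to 8661 joins *ATP6* to *COX3*. In these 3 deletions the copies of the repeat are exactly as far apart as the listed size.
ND5 deletion, start, MT:12695-12725: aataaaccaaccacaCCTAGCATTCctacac
ND5 deletion, end, MT:13093-13123: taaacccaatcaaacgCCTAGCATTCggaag
ND5 to ND6 deletion, start, MT:13455-13485: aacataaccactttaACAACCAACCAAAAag
ND5 to ND6 deletion, end, MT:14007-14037: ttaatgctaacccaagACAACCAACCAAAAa
ATP6 to COX3 deletion, start, MT:8240-8270: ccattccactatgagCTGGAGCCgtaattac
ATP6 to COX3 deletion, end, MT:8646-8676: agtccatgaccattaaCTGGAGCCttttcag

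The duplications of the *L/L, cre* hearts with most supporting reads were 3 segments with 3 reads each, in the 12S rRNA gene, the 16S rRNA gene and *COX2*. An event with both ends in the NCR was listed in a heart of each genotype, and it is shown because its start lies in conserved sequence block 2 (CSB2, 16089 to 16104), a run rich in C near the heavy-strand origin. Capitals again mark the deposited repeat. In the 16S duplication and in the NCR event of the *L/L, cre* heart the copies are not exactly as far apart as the listed size.
12S duplication, start, MT:71-101: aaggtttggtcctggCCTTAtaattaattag
12S duplication, end, MT:130-160: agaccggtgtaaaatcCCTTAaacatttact
16S duplication, start, MT:1190-1220: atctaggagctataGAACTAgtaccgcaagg
16S duplication, end, MT:1275-1305: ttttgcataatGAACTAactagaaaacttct
COX2 duplication, start, MT:7260-7290: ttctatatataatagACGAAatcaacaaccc
COX2 duplication, end, MT:7319-7349: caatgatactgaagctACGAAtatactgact
NCR event of the *L/L, cre* heart, start, MT:16085-16115: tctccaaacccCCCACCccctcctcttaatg
NCR event of the *L/L, cre* heart, end, MT:15702-15732: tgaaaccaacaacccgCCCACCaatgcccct
NCR event of the *L/L* heart, start, MT:16086-16116: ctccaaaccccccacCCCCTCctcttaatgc
NCR event of the *L/L* heart, end, MT:15712-15742: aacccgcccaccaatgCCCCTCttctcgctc

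The event lists give the depth of a library at its own events, as supporting and reference reads together, and coverage along the circle was not analysed here. The median was 27178 reads (18059 to 28238) in the mitochondrial DNA *L/L* heart and 11729 reads (5974 to 12708) in the *L/L, cre* heart of the same kind. It was 9941.5 reads (9848 to 10035) in the total DNA *L/L* heart and 1655.5 reads (1589 to 1722) in the total DNA *L/L, cre* heart. Both *L/L, cre* hearts were shallower than their partner, with 0.432 times its median depth for mitochondrial DNA and 0.167 times for total DNA. The smallest listed number of reads, 2, made 0.00736% of the median depth in the mitochondrial DNA *L/L* heart and 0.0171% in its *L/L, cre* partner. It made 0.0201% in the total DNA *L/L* heart and 0.121% in the total DNA *L/L, cre* heart. Every event listed in the *L/L* hearts had a heteroplasmy below the level that 2 reads make in the total DNA *L/L, cre* heart. The level that 3 reads make, used as a floor below, was 0.0110% and 0.0302% in the mitochondrial and total DNA *L/L* hearts and 0.0256% and 0.181% in the *L/L, cre* hearts. Floors and the 95% Wilson intervals given with single events cover counting error only.

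**Figure D1:**
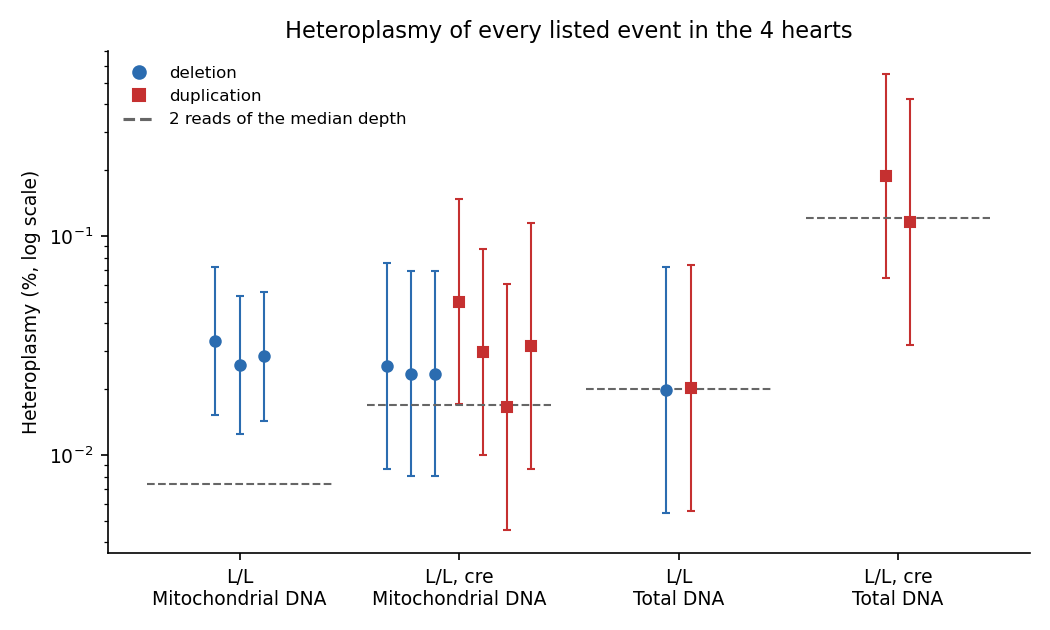
Heteroplasmy (percent, log scale) of each of the 14 listed entries by heart library, with deletions as circles, duplications as squares and 95% Wilson intervals as bars; the dashed lines give the percentage that 2 reads make of the median depth of a library. The entries of the mitochondrial DNA *L/L* heart are all deletions and lie well above their line, whereas those of the total DNA *L/L, cre* heart are duplications that lie near a line at 0.121%.

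Deletions were listed in hearts of both genotypes, and their number and summed level differed between the groups by less than the spread within them. The mitochondrial DNA hearts had 3 deletions in the *L/L* mouse and 3 in the *L/L, cre* mouse, and the total DNA hearts had 1 in the *L/L* mouse and 0 in the *L/L, cre* mouse. The groups overlap, and the lowest value belongs to the shallowest library. The difference in means was -0.5 deletions (2 ± 1.41 in *L/L* and 1.5 ± 2.12 in *L/L, cre*, SD, n = 2 each; p = 1 in an exact 2-sided permutation test). With 2 hearts against 2 the smallest p that this test can give is 0.333, so that a p under 0.05 is out of reach. The difference in deletions was 0.5 without the mitochondrial DNA *L/L* heart and 1 without the total DNA *L/L, cre* heart. It was -2 without the mitochondrial DNA *L/L, cre* heart and -1.5 without the total DNA *L/L* heart. Per 10000 reads of median depth, a scale chosen after seeing the data, there were 1.10 deletions in the mitochondrial DNA *L/L* heart, 2.56 in its *L/L, cre* partner, 1.01 in the total DNA *L/L* heart and 0 in the total DNA *L/L, cre* heart. On this scale the *L/L, cre* mean was the higher, by 0.224, and the groups still overlap (exact permutation test, p = 1).

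Summed over deletions, heteroplasmy was 0.0873% in the mitochondrial DNA *L/L* heart, 0.0728% in its *L/L, cre* partner, 0.0199% in the total DNA *L/L* heart and 0% in the total DNA *L/L, cre* heart. Both mitochondrial DNA hearts were above both total DNA hearts, and the genotypes overlap. The *L/L, cre* mean was lower by less than either SD, with a difference of -0.0172 percentage points (0.0536% ± 0.0477 in *L/L* and 0.0364% ± 0.0515 in *L/L, cre*, SD, n = 2 each; p = 0.667 in an exact permutation test). Within the mitochondrial DNA pair the difference was -0.0145 percentage points and within the total DNA pair -0.0199. The difference of the means was -0.00725 percentage points with at least 3 supporting reads, and -0.0309 with only events at or above the larger floor of the pair. It was -0.0536 without the mitochondrial DNA *L/L, cre* heart and -0.0509 without the total DNA *L/L* heart. Without the mitochondrial DNA *L/L* heart the difference of the means became 0.0165 percentage points, and without the total DNA *L/L, cre* heart 0.0192. Either step leaves a group with 1 kind of DNA against a group with both kinds, whereas within each pair the *L/L, cre* value was the lower.

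Duplications were listed more often in the *L/L, cre* heart of each pair. Their number was 0 in the mitochondrial DNA *L/L* heart, 4 in its *L/L, cre* partner, 1 in the total DNA *L/L* heart and 2 in the total DNA *L/L, cre* heart. Both *L/L, cre* hearts were above both *L/L* hearts, at the lower depth of each pair. The difference in means was 2.5 duplications (0.5 ± 0.707 in *L/L* and 3 ± 1.41 in *L/L, cre*, SD, n = 2 each; p = 0.333 in an exact permutation test). It was 4 within the mitochondrial DNA pair and 1 within the total DNA pair. Counting only entries with 3 or more supporting reads, the difference was 1.5, and it was also 1.5 without the mitochondrial DNA *L/L, cre* heart. Per 10000 reads of median depth there were 0 duplications in the mitochondrial DNA *L/L* heart, 3.41 in its partner, 1.01 in the total DNA *L/L* heart and 12.1 in its partner, and the means differed by 7.24 (exact permutation test, p = 0.333).

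Summed over duplications, heteroplasmy was 0% in the mitochondrial DNA *L/L* heart, 0.128% in its *L/L, cre* partner, 0.0203% in the total DNA *L/L* heart and 0.305% in the total DNA *L/L, cre* heart. Again both *L/L, cre* hearts were above both *L/L* hearts, and the highest value came from the shallowest library and rests on 5 reads. The difference in means was 0.206 percentage points (0.0102% ± 0.0144 in *L/L* and 0.216% ± 0.125 in *L/L, cre*, SD, n = 2 each; p = 0.333 in an exact permutation test). It was 0.128 within the mitochondrial DNA pair and 0.285 within the total DNA pair, and 0.118 without the total DNA *L/L, cre* heart. With at least 3 supporting reads the difference in means was 0.134 percentage points. Depth enters this sum directly, since an event of 2 reads weighs more in a shallow library, and the part of depth in the result was not tested.

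The share of a library's supporting reads that lie in duplications was also compared. It was 0% in the mitochondrial DNA *L/L* heart (0 of 21 reads; 95% interval 0 to 15.5) and 52.6% in its *L/L, cre* partner (10 of 19 reads; 31.7 to 72.7). In the total DNA hearts it was 50% in the *L/L* mouse (2 of 4 reads; 15.0 to 85.0) and 100% in the *L/L, cre* mouse (5 of 5 reads; 56.6 to 100). Both *L/L, cre* hearts were above both *L/L* hearts, although 52.6% and 50% lie close together and their intervals overlap almost wholly. The difference in means was 51.3 percentage points (25% ± 35.4 in *L/L* and 76.3% ± 33.5 in *L/L, cre*, SD, n = 2 each; p = 0.333 in an exact permutation test). It was 26.3 points without the mitochondrial DNA *L/L* heart and 27.6 without the total DNA *L/L, cre* heart. The share was lowest in the deepest library and highest in the shallowest, and the part of depth in it was not tested.

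Within the mitochondrial DNA pair Fisher's exact test on reads gave p = 0.000109 (adjusted p = 0.000218 by Benjamini-Hochberg over 2 pairs). Within the total DNA pair Fisher's exact test gave p = 0.167, which is the smallest p that its 9 reads with 2 in deletions allow, so this test could not pass 0.05. These tests compare single libraries and not the genotypes, and they treat reads of the same event as independent molecules. In the mitochondrial DNA pair the reads fall into only 3 entries of the *L/L* heart and 7 of the *L/L, cre* heart. The p-values can therefore be too small. With the NCR events read as deletions of their shorter arc, the share became 0% in the total DNA *L/L* heart, and the adjusted p of this pair became 0.00794. With a minimum of 3 supporting reads the total DNA *L/L* heart has no event left, and the adjusted p of the mitochondrial DNA pair was 0.00514.

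**Figure D2:**
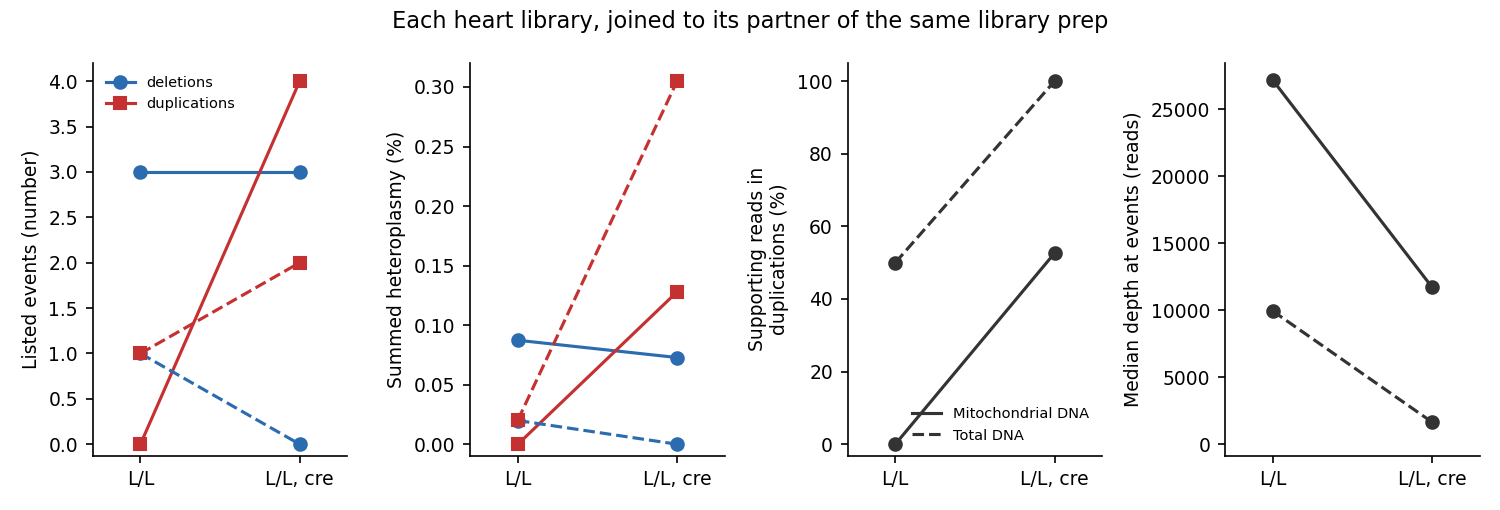
Each panel joins the *L/L* heart to the *L/L, cre* heart of the same kind of DNA (solid lines, Mitochondrial DNA; broken lines, Total DNA) for the number of listed events, their summed heteroplasmy (percent), the percentage of supporting reads in duplications and the median depth (reads); points are single libraries. Duplication values are higher in the *L/L, cre* heart of both pairs, and the median depth is lower, from 27178 to 11729 and from 9941.5 to 1655.5 reads.

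The deletions with most supporting reads were all in the mitochondrial DNA *L/L* heart, and 2 of its 3 were listed with identical ends in the *L/L, cre* partner. The deletion within *ND5*, which encodes a membrane subunit of complex I, removes 399 bp, or 133 codons. In the *L/L* heart it had 0.0258% (0.0125 to 0.0532; 7 of 27178 reads), against 0.0256% (0.00870 to 0.0752; 3 of 11729 reads) in its partner. The values were nearly equal, with a ratio of 0.993 (Fisher's exact test on reads, p = 1), and the number of supporting reads scaled with the depth. The total DNA hearts did not list it.

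The deletion from *ND5* into *ND6*, the complex I gene on the opposite strand, removes 553 bp, which hold the 3′ end of *ND5* and most of *ND6*. Its heteroplasmy in the *L/L* heart was 0.0283% (0.0144 to 0.0559; 8 of 28238 reads), against 0.0236% (0.00803 to 0.0694; 3 of 12700 reads) in the *L/L, cre* partner. These values differed by less than counting error, with a ratio of 0.834 (Fisher's exact test, p = 1). The *L/L, cre* heart also listed a deletion of 557 bp from 13466 to the same end, with 3 of 12708 reads (0.0236%). Its deposited repeat has only 2 bases, and its start lies 4 bp before that of the 553 bp deletion. With the reads of both entries added, the *L/L, cre* heart had 6 reads and 1.67 times the heteroplasmy of the *L/L* heart (Fisher's exact test, p = 0.388, adjusted p = 0.776).

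The deletion of 407 bp from *ATP6*, a subunit of the ATP synthase, to *COX3*, a subunit of complex IV, had the highest heteroplasmy among the heart deletions. It was 0.0332% (0.0152 to 0.0725; 6 of 18059 reads) in the mitochondrial DNA *L/L* heart and was not listed in the other 3 hearts. At this level 3.90 reads would fall in the *L/L, cre* partner at its median depth, and 1.79 reads at the lower limit of the interval. With the partner's depth scaled to 0.664 times that at the *ND5* deletion, as in the *L/L* heart, these values were 2.59 and 1.19 reads. The local depth cancels in this scaling, so the scaled values are no separate check. The deletion was taken because the *L/L* heart listed it, which favours a high level. Its absence from the partner's list is therefore not tested by these values. The only deletion of the total DNA *L/L* heart removes 481 bp of *ND5*, between 12137 and 12617, and had 0.0199% (0.00547 to 0.0726; 2 of 10035 reads). In the total DNA *L/L, cre* heart this level corresponds to 0.330 reads, far below the 2 reads of the smallest listed entry.

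The duplications of the mitochondrial DNA *L/L, cre* heart lay in 4 places, and 3 of them were short. A segment of 60 bp from 86 to 145 in the gene of the 12S rRNA, the RNA of the small ribosomal subunit, had 0.0502% (0.0171 to 0.148; 3 of 5974 reads). A segment of 86 bp from 1205 to 1290 in the gene of the 16S rRNA, the RNA of the large ribosomal subunit, had 0.0296% (0.0101 to 0.0871; 3 of 10120 reads). A segment of 62 bp from 14910 to 14971 in *CYTB*, which encodes cytochrome b of complex III, had 0.0166% (0.00454 to 0.0604; 2 of 12070 reads) and no deposited repeat. These 3 segments were not listed in the deeper *L/L* partner. At the median depth of the partner their levels correspond to 13.6, 8.06 and 4.50 reads, and at the lower limits of the intervals to 4.64, 2.74 and 1.24 reads. At the lower limits the values of the 12S and 16S segments were above the 2 reads of the smallest listed entry, and that of the *CYTB* segment was not. The 3 segments were taken because the *L/L, cre* heart listed them, which favours high levels. These values therefore do not test their absence from the partner. With the partner's depth scaled as it varied between these positions in the *L/L, cre* heart, the lower limits correspond to 2.36 reads for the 12S segment, 2.36 for the 16S segment and 1.27 for the *CYTB* segment. The local depth cancels in this scaling, so these values only restate 3 reads against 2 and are no separate check. The depth of the partner at these positions was not analysed here.

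The total DNA *L/L, cre* heart listed a duplication of 60 bp in *COX2*, from 7275 to 7334, at 0.189% (0.0642 to 0.554; 3 of 1589 reads). It listed another of 63 bp in *COX3*, from 8959 to 9021, at 0.116% (0.0319 to 0.422; 2 of 1722 reads). Both genes encode core subunits of complex IV, and the segments equal 20 and 21 codons. They had the highest heteroplasmies of all heart events, in the library where 2 reads already make 0.121%. In the total DNA *L/L* heart these levels correspond to 18.8 and 11.5 reads at its median depth, and to 6.39 and 3.17 reads at the lower limits. Neither segment was listed there. Both segments were taken because the shallow *L/L, cre* heart listed them, which favours high levels. These figures therefore do not test their absence from the *L/L* heart. The 5 short duplications of the *L/L, cre* hearts measured 60 to 86 bp, with a median of 62 bp, and the *L/L* hearts listed 0 duplications of this kind. No short duplication was listed in both *L/L, cre* hearts.

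The remaining 2 duplications have both ends in the NCR and nearly the same position in hearts of different genotype. In the mitochondrial DNA *L/L, cre* heart the event is listed as a duplication of 15917 bp from 16100 round the circle to 15717, which skips 382 bp of the NCR, at 0.0316% (0.00866 to 0.115; 2 of 6332 reads). In the total DNA *L/L* heart it is listed with 15926 bp from 16101 to 15727, skips 373 bp and had 0.0203% (0.00557 to 0.0740; 2 of 9848 reads). Both events start in CSB2, and both have a repeat of 6 bases that is rich in C. At the level of the *L/L, cre* heart 8.58 reads would fall in the mitochondrial DNA *L/L* heart, and 2.35 at the lower limit, and no such event was listed there. These figures use the median depth of that heart. The depth at the event can be scaled to 0.540 times that at the *ND5* deletion, as in the *L/L, cre* heart. The lower limit then corresponds to 1.27 reads, below the smallest listed number. In the total DNA *L/L* heart the factor was 0.981, so this scaling may not hold for an *L/L* heart. The paper reports relatively low coverage near both origins for linear mtDNA fragments of knockout hearts. The event was taken because the *L/L, cre* heart listed it, so neither figure tests its absence from the *L/L* heart.

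**Figure D3:**
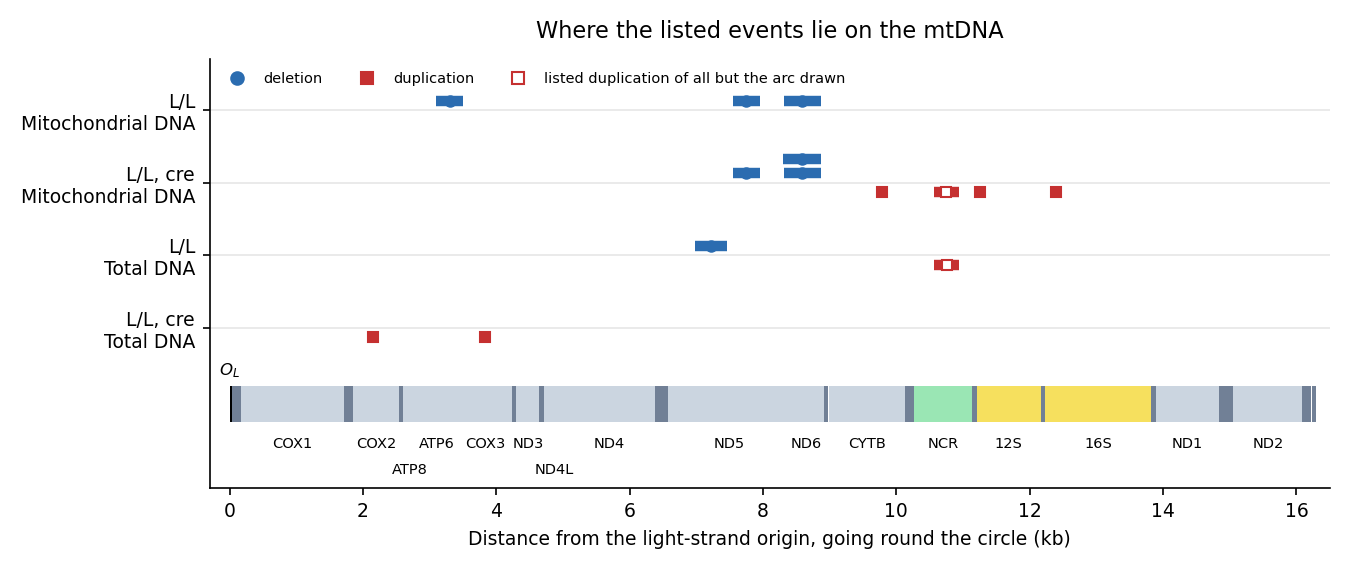
Position of the listed events in each heart, drawn to scale as the shorter arc between their ends against the distance from O_L going round the circle (kb), with the genes, the tRNA genes (dark bands) and the NCR (green) below; circles mark deletions, squares duplications, and open squares the listed duplications of all but the arc drawn, with symbols wider than the short segments. Deletions lie between *ATP6* and *ND6*, and duplications are spread from *COX2* to the 16S rRNA gene. Only listed duplications skip an arc with bases of O_L or the NCR, so place and type are not independent.

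The places of the listed events are given by type, with no test of a difference. Only listed duplications skip an arc with bases of O_L or the NCR, so the place of an event and its listed type are not independent. All 5 distinct deletions lay in the major arc, and 4 of them had an end in *ND5*. Of the 7 duplications 3 lay in the major arc, 2 in the minor arc and 2 in the NCR. The major arc thus held both types. Over all entries, 12 of 28 ends were in complex I genes, which make up 38.9% of the mtDNA, and 5 were in complex IV genes, which make up 18.5%. A further 4 ends were in rRNA genes (15.6% of the mtDNA), 4 in the NCR (5.38%), 2 in *CYTB* (7.02%) and 1 in an ATP synthase gene (5.17%). The tRNA genes (9.18%) and O_L (0.196%) held 0 ends. The entries are few and partly shared between libraries, so these counts are a description.

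Sizes and end repeats are also given by type, as a description with no test. The distinct deletions measured 399 to 557 bp, with a median of 481 bp, and their deposited repeats had 2 to 14 bases, with a median of 8. The repeats of the duplications had 0 to 6 bases, with a median of 5. The longest repeats thus belonged to deletions. A 14-base match at the spacing of the *ND5* to *ND6* deletion occurs at 1 place on the whole circle, as does a 10-base match at the spacing of the *ND5* deletion. For the *ATP6* to *COX3* deletion an 8-base match at its spacing occurs at 2 places. The other deletions had less rare repeats, with 10 places for the 6 bases of the deletion from 12137 and 818 places for the 2 bases of the deletion from 13466. Their copies are 486 and 559 bp apart, against listed sizes of 481 and 557 bp, and places were counted at the spacing of the copies. Among the short duplications, the copies of the 16S duplication are 82 bp apart, against a listed size of 86 bp. A match as long as its 6 bases occurs at this spacing of 82 bp at 3 places. Matches as long as those of the *COX2* and 12S duplications, 5 bases at a spacing of 60 bp, occur at 27 places, and matches of 2 bases as in the *COX3* duplication at 983 places. Rare and common repeats were thus found in both types of event.

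**Figure D4:**
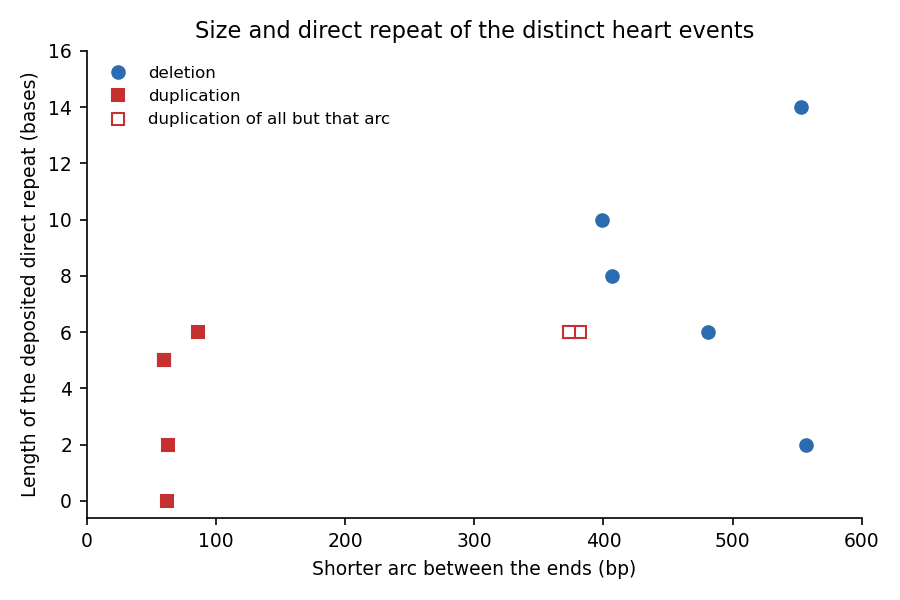
Length of the deposited direct repeat (bases) against the shorter arc between the ends (bp) for the 12 distinct events of the hearts; circles are deletions, filled squares short duplications and open squares the 2 events of the NCR, and the squares of the 12S and *COX2* duplications coincide at 60 bp and 5 bases. Short duplications group at 60 to 86 bp, apart from the deletions at 399 to 557 bp.

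Deletions and duplications rested on different numbers of reads. Of the 7 deletion entries 3 had more than 3 reads, 3 had 3 reads and 1 had 2. Of the 7 duplication entries 0 had more than 3 reads, 3 had 3 reads and 4 had 2. Every entry with more than 3 reads came from the mitochondrial DNA *L/L* heart, the deepest library, and the duplications of the *L/L, cre* hearts lay close to the smallest number of reads that is listed.

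Depth along the circle was uneven in the mitochondrial DNA hearts. In the *L/L, cre* heart the depth was 12700 reads at the *ND5* to *ND6* deletion, 12070 at the *CYTB* duplication, 6332 at the NCR event, 5974 at the 12S duplication and 10120 at the 16S duplication. It was thus lowest at the 2 events in and next to the NCR, at 0.540 and 0.509 times the depth at the *ND5* deletion. The *L/L* partner had no event near the NCR, so its list gives no matching value. Its depth at the *ATP6* to *COX3* deletion was 0.664 times that at its *ND5* deletion. In the total DNA *L/L* heart the NCR event had 0.981 times the depth at the *ND5* deletion of that heart. A lower depth raises the heteroplasmy of an event with the same number of reads, and its part in the values of the NCR and 12S events was not tested.

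**Figure D5:**
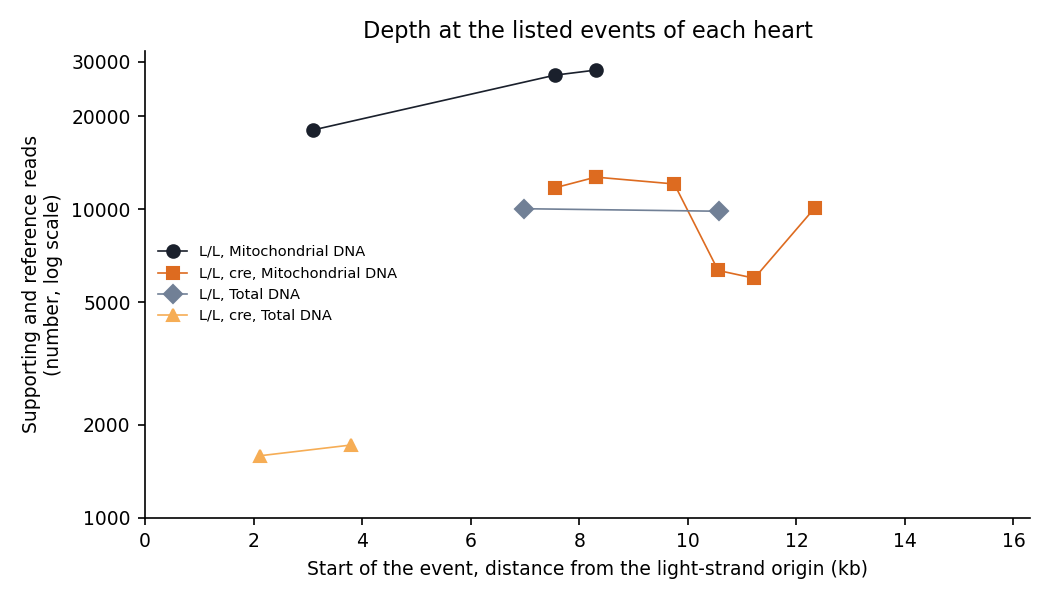
Depth at each listed event (supporting and reference reads, log scale) against the distance from O_L to the start of its shorter arc (kb), with the events of a library joined by a line. Depth in the mitochondrial DNA *L/L, cre* heart drops to 6332 and 5974 reads at the events in the NCR and the 12S rRNA gene, and the total DNA *L/L, cre* heart lies lowest, at 1589 and 1722 reads.

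Nuclear copies of mtDNA could be aligned to the mtDNA in these data, so the junctions were searched for in the nuclear chromosomes. The joined sequence was found for 0 of the 5 distinct deletions and 0 of the 7 distinct duplications. The intact sequence around at least 1 of the breakpoints was found in the nuclear genome for 5 of the 5 deletions and 6 of the 7 duplications, the exception being the 16S duplication. Where such a copy is similar enough to the mtDNA for its reads to align, it could add to the reference reads. How similar these copies are is not given here, and the number of such reads was not measured.

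Some heart events were also listed with identical ends in brains. The *ND5* deletion was listed in the male *Mgme1+/+* brain at 0.0326% (3 reads) and in the female *Mgme1-/-* brain at 0.0195% (2 reads). The *ND5* to *ND6* deletion was listed in the female *Mgme1+/+* brain at 0.0452% (4 reads) and in both *Mgme1-/-* brains, at 0.0288% in the male and 0.0188% in the female. The same ends were also listed as a duplication in both *Mgme1-/-* brains, with more reads, at 0.0576% in the male (4 reads) and 0.0846% in the female (9 reads). The *ATP6* to *COX3* deletion was listed in the female *Mgme1+/+* brain at 0.0413% (2 reads). Thus the 3 deletions of the mitochondrial DNA *L/L* heart all recurred in wild-type brain, at levels whose intervals overlap those of the hearts.

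Of the short duplications, the 16S segment was listed in both *Mgme1+/+* brains, at 0.0182% in the male and 0.0199% in the female (2 reads each). The *COX3* segment was listed in the female *Mgme1-/-* brain at 0.0373% (2 reads). The 12S, *CYTB* and *COX2* segments were listed in no brain. Duplications under 100 bp numbered 0 and 0 in the *L/L* hearts, 3 and 2 in the *L/L, cre* hearts, 2 and 2 in the *Mgme1+/+* brains and 2 and 8 in the *Mgme1-/-* brains. Short duplications were therefore also listed without a knockout. Each wild-type brain held as many as the total DNA *L/L, cre* heart, but at median depths of 9210 and 8660 reads against 1655.5. Per 10000 reads of median depth, duplications of any length numbered 2.17 and 3.46 in these brains and 12.1 in that heart. Tissue and age also differ between them.

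The *Mgme1-/-* brains lack an exonuclease that trims DNA ends at the close of replication, and served as the control in which the same method lists duplications of the NCR. Duplications with the whole segment inside the NCR (15423 to 16299) numbered 0 in both *L/L, cre* hearts, 4 in the male *Mgme1-/-* brain and 3 in the female. They also numbered 0 in both *L/L* hearts and both *Mgme1+/+* brains. The groups did not overlap, with a difference of -3.5 (0 ± 0 in *L/L, cre* hearts and 3.5 ± 0.707 in *Mgme1-/-* brains, SD, n = 2 each; p = 0.333 in an exact permutation test). With either end inside the NCR, the *L/L, cre* hearts had 1 and 0 and the *Mgme1-/-* brains 9 and 9. With at least 3 supporting reads the difference of the means was -1. The *Mgme1-/-* brains had median depths of 7035 and 10442 reads, between the 1655.5 reads of the total DNA *L/L, cre* heart and the 11729 reads of the mitochondrial DNA *L/L, cre* heart. At its NCR event the mitochondrial DNA *L/L, cre* heart had only 6332 reads, below the medians of both *Mgme1-/-* brains. The depth of the brains within the NCR was not analysed here. The level that 2 reads make was 0.121% in the total DNA *L/L, cre* heart, against 0.0284% and 0.0192% in these brains. An event at the level that 2 reads make in these brains would give fewer than 2 reads in that heart. The 0 of that heart therefore decides little. Tissue, age and, for the mitochondrial DNA *L/L, cre* heart, the kind of DNA also differ between these groups and cannot be told apart from the genotype.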

How the data were processed

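The authors prepared TruSeq Nano libraries, ran them on a NovaSeq sequencer and aligned reads to the mtDNA of GRCm38 alone. MitoSAlt clustered gapped reads into events; its version and listing limits are not given in the sources used here. The authors deposited the counts of supporting and reference reads of each event without normalization, after removal of PCR duplicates. Heteroplasmy was deposited as a percent, and positions and sizes in bp. Recomputing heteroplasmy from the reads returned the deposited percent to 4 decimals for all 14 heart entries.

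All entries were used as listed. Group means over libraries were compared with exact 2-sided permutation tests, and reads of 2 libraries with Fisher's exact test. Hearts were paired by library prep, which the labels give. Genes and elements came from the RefSeq annotation of GRCm38. The 60 bp flanking each side of a junction were joined and searched in the nuclear chromosomes (BLAST+ 2.17.0, blastn, e-value limit 0.001, word size 11), and a match had to reach 25 bp past the junction both ways. Windows and repeats came from the deposited lists. Alternatives included minimum reads, floors, event type by the shorter arc, merging and leaving out libraries. Members, lists and tests were chosen with earlier results of these data known. Calculations used SciPy 1.17.1 and NumPy 2.4.6 in Python 3.11.15, and plots matplotlib 3.10.9.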

Additional observations from a re-analysis of the deposited data

How the results depend on the processing

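Of 64 alternatives over 10 results, 5 turned the sign. Per 10000 reads of the median depth, chosen after seeing the data, the differences were 0.224 deletions and 7.24 duplications. The difference in deletions (-0.5) was 0 with at least 3 supporting reads, -1 with only events at or above the larger floor of the pair, -1 with entries within 10 bp merged, and between -2 and 1 when libraries were left out in turn; it was 0.5 without the mitochondrial DNA *L/L* heart and 1 without the total DNA *L/L, cre* heart. The difference in their summed heteroplasmy ranged from -0.0536 to 0.0192 percentage points when libraries were left out, with 0.0165 and 0.0192 without these hearts, and was -0.00725 with at least 3 supporting reads and -0.0309 at the larger floor. Summed duplications differed by 0.134 percentage points with at least 3 supporting reads. The difference in duplications was 1.5 with at least 3 supporting reads and 1.5 to 3.5 when libraries were left out. For duplications in the NCR, the difference from *Mgme1-/-* brains was -8.5 with at least 50% of the segment inside, -8.5 with either end inside and -1 with at least 3 supporting reads. Leaving out libraries in turn gave 0.118 to 0.295 percentage points for summed duplications and 26.3 to 76.3 points for the read share. The adjusted p of the read share in the total DNA pair was 0.00794 with the type by the shorter arc (Fisher's exact test). The read share could not be computed for the total DNA *L/L* heart with at least 3 supporting reads or at the larger floor, since no event was left. Paired by library prep as a replicate block, the differences were the same (-0.5 and 2.5 events, -0.0172 and 0.206 percentage points, and 51.3 points of read share), and the exact permutation p was 1 for the number of deletions and 0.5, the smallest that 2 pairs allow, for the others.

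With 2 hearts in each group the exact permutation tests used here cannot pass 0.05, and their p-values say nothing about stability. Depth was taken from the listed events, and an event that is not listed is not known to have had 0 reads. All 7 heart duplications rest on 2 or 3 reads. Sex and kind of DNA cannot be told apart, and depth was lower in both *L/L, cre* hearts.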
